A study of Brachypodium distachyon with 12 samples.

Results

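Vascular bundles (VBs) in which the first protoxylem cells had become visible were compared with VBs that still had none, in the shoot apex of Brachypodium distachyon, a small grass used as a model for cereals. The comparison took 6 of the 12 RNA-seq libraries of the series: 3 libraries of VB type 2, with 1 to 2 protoxylem cells, and 3 libraries of VB type 1, with no perceptible protoxylem cell. The other 6 libraries, 3 of VB type 3 with 3 to 4 protoxylem cells and 3 of parenchyma from the stem center, are given beside them for scale only. All plants were untreated wild type Bd21-3, 19 days old by the labels and grown in soil under long days, and no mutant or transgene was involved. The labels name the tissue only as meristem.

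The bundles were cut out of frozen sections of the top node of the main stem by laser capture microdissection, in which a laser excises the chosen cells under a microscope, and each library began from 500 pg of RNA amplified as cDNA. According to the study's methods, each replicate pooled several microdissected bundles from a few plants at most. The study's results section states that nascent bundles were recognised by their low chlorophyll. A microdissected bundle also holds procambium, phloem and sheath cells besides any xylem, so in these bulk samples a smaller number of cells of 1 kind and less RNA per cell cannot be told apart.

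A vascular bundle arises from procambium, a strand of narrow dividing cells that gives rise to phloem on one side and xylem on the other. Protoxylem is the first xylem to mature. Its cells deposit ring-shaped or helical secondary walls of cellulose, xylan and lignin, then digest their own contents with proteases such as XCP1 and become hollow conduits while the organ is still elongating. Auxin moved by PIN carriers positions the strand, and the receptor kinase PXY with its CLE peptide ligands keeps procambium cells dividing in Arabidopsis. In the same species ERECTA family receptor kinases and their EPFL peptide ligands act in stem growth and in the layout of the vasculature.

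The 6 libraries held 16907265 to 22527248 read pairs, each pair assigned to 1 transcript of the Brachypodium transcriptome. A single transcript, Bradi2g12067.1, which the annotation used here did not cover, took 26.1% to 54.0% of the pairs in VB type 1 and 31.6% to 41.9% in VB type 2. This left 10360580 to 13886473 pairs for all others. Among the libraries given for scale, parenchyma replicate 3 had 86.3% of its pairs on Bradi2g12067.1 and 1768043 pairs on all others. Its values below rest on fewer pairs than those of any other library. A transcript with at least 1 pair was found 21331 to 22463 times per library in VB type 1 and 19256 to 21072 times in VB type 2, so the ranges did not overlap and every VB type 2 library held fewer. No unique molecular identifiers are named in the sources, and counts of amplified cDNA carry more than counting error.

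The libraries differed as much within a type as between types. On log2 CPM (pairs per 1e+06 pairs on the tested transcripts, after TMM scaling), the most similar of the 15 pairs of libraries were VB type 1 replicate 1 and VB type 2 replicate 1, with r = 0.818 over 17703 transcripts. Libraries of VB type 1 correlated with each other at 0.612 to 0.802 and those of VB type 2 at 0.567 to 0.701. VB type 2 replicate 3 stood apart from the other libraries. Neither the first nor the second principal component separated the types. On the third, with 14.1% of the variance, the types did not overlap, with VB type 1 at -21.7, -59.3 and -48.8 and VB type 2 at -2.27, 131.8 and 0.207. That component mainly set VB type 2 replicate 2 apart. The other libraries of VB type 2 lay nearer on it to VB type 1 replicate 1 than to VB type 2 replicate 2.

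**Figure D1:**
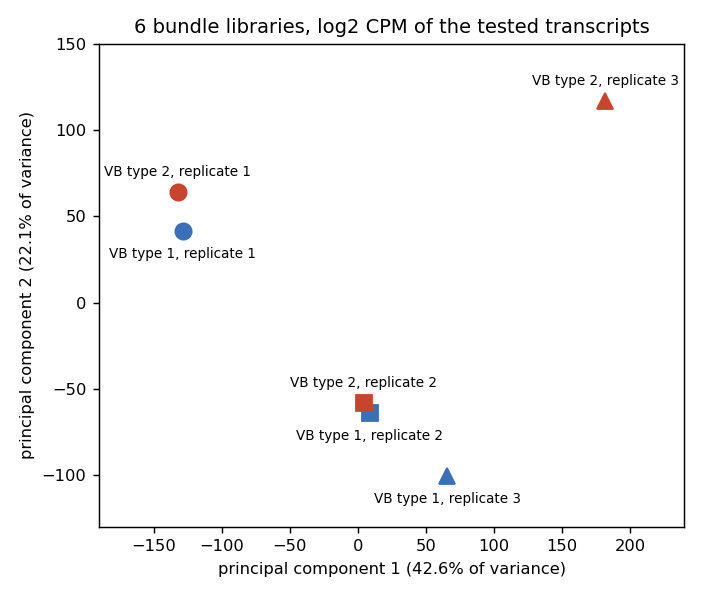
Principal components of log2 CPM over 17703 transcripts, component 1 (42.6% of the variance) on the x axis and component 2 (22.1%) on the y axis. Each point is a library, blue for VB type 1 and red for VB type 2, with circles, squares and triangles for replicates 1, 2 and 3. The 2 libraries numbered 1 lie side by side at the left, and VB type 2 replicate 3 lies alone at the upper right.

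No transcript was called different between the bundle types in the main test. A filter that asked for 1 CPM or more in 3 or more of the 6 libraries left 17703 transcripts. The quasi-likelihood test of edgeR called 0 (0%) of them after the Benjamini-Hochberg correction, and the smallest adjusted p was 1.00. At an unadjusted p under 0.05 the test gave 362 transcripts (2.04%), 193 (1.09%) higher in VB type 2 and 169 (0.955%) lower. With the replicate number of the titles as a block the same test called 0 (0%), and 598 transcripts (3.38%) had an unadjusted p under 0.05. The biological coefficient of variation was 0.827 without the block and 0.72 with it. The study's methods give 3 biological replicates and the series description only 1, so the p-values measure the spread between these libraries, which may in part be technical.

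Other tests on the same counts made a small number of calls. The likelihood ratio test of edgeR, the test named in the study's methods, called 19 transcripts (0.107%), 7 higher and 12 lower in VB type 2, and 50 (0.282%) with the block. DESeq2 called 16 (0.0904%) without the block and 127 (0.717%) with it. Limma-voom called 0 (0%) without the block, where 371 (2.1%) had an unadjusted p under 0.05, and 7 (0.0395%) with it. Of the 135 transcripts called in at least 1 of these 5 settings with calls, 80 were called in a single setting, 9 in 4 settings and 1 in all 5. The transcript called in all 5 was Bradi5g26230.1, annotated as PORA.

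A looser description is whether the 3 libraries of one type lie wholly above those of the other. By normalized CPM, 741 transcripts (4.19%) lay higher in every VB type 2 library than in any VB type 1 library, and 775 (4.38%) lay lower. The groups below are read against these shares and against the 50.8% of tested transcripts with a log2 fold change above 0, whose median was 0.01.

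PORA encodes protochlorophyllide oxidoreductase, which carries out the light-dependent step of chlorophyll synthesis. Bradi5g26230.1 stood at 35.7, 16.9 and 11.3 CPM in VB type 1 replicates 1 to 3 and at 138, 119 and 145 CPM in those of VB type 2. The lowest VB type 2 library was far above the highest VB type 1 library, and the VB type 2 values lay close together at 134 ± 13.6 CPM (SD, n = 3). The log2 fold change was 2.65 ± 0.48 (SE), a fold of 6.29. Its unadjusted p was 0.000583 by edgeR's quasi-likelihood test and its adjusted p 1.00, against adjusted p-values of 0.018 by edgeR's likelihood ratio test and 0.00318 by DESeq2. The block left the log2 fold change at 2.81 ± 0.41. In VB type 3 the transcript lay between, at 58.5, 107 and 67.3 CPM, and in parenchyma it was higher at 218, 1495 and 662 CPM.

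Transcripts for chlorophyll-binding antenna proteins of the photosystems were among those free of overlap, with 0 of them called in the main test. Bradi1g15290.1, annotated as LHCB2 of the photosystem II antenna, stood at 199, 91.7 and 90.4 CPM in VB type 1 and at 466, 294 and 435 CPM in VB type 2. The 2 types did not overlap, and the log2 fold change was 1.65 ± 0.42. Bradi4g37210.1, 1 of 3 transcripts annotated as LHCB1.5, stood at 445, 136 and 249.7 CPM in VB type 1 and at 887, 735 and 868 CPM in VB type 2. Its log2 fold change was 1.58 ± 0.44, and again no VB type 2 library reached down to the highest VB type 1 library. Bradi2g16290.1, also annotated as LHCB1.5, had a log2 fold change of 1.38 ± 0.45. None of these 3 was called by the quasi-likelihood test. All of them were called by edgeR's likelihood ratio test with the block, at adjusted p-values of 0.00913, 0.0205 and 0.0341. Without the block that test gave adjusted p-values of 0.68, 1.00 and 1.00, and DESeq2 gave 0.22, 0.40 and 0.82. Only pairs that mapped to a single transcript were counted, so levels of such near-identical family members can be shared out unevenly.

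Across the photosynthesis list as a whole, 32 of 35 members passed the filter on low counts and 0 were called. Of the 32, 23 (71.9%) had a log2 fold change above 0, with a median of 0.41 against 0.01 over all tested transcripts. In 10 members every VB type 2 library lay above every VB type 1 library, and in 0 the reverse held. Without VB type 1 replicate 1 the 10 became 21, and over all tested transcripts 741 became 1721 of 17077, since fewer libraries separate more easily. The median went from 0.30 without VB type 1 replicate 2 to 0.65 without VB type 1 replicate 1. At an unadjusted p under 0.05 there were 8 members, all 8 higher in VB type 2. The highest level per kilobase in the list belonged to Bradi3g17640.1, annotated as the photosystem II subunit PSBR, at 222, 224 and 328 CPM in VB type 1 and 228, 204 and 251 CPM in VB type 2. It showed no separation, with a log2 fold change of -0.18 ± 0.30.

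The members split by kind of subunit, a split made after their values were seen and given without a test. All 13 light-harvesting antenna transcripts had a log2 fold change above 0, with a median of 1.11, and 7 of them did not overlap between the types. The 8 photosystem I subunits were also all above 0, at a median of 0.46, and 3 did not overlap. Of the 8 photosystem II subunits other than antenna, 2 were above 0, and their median was -0.11. The 3 members of other kinds were all below 0. The highest log2 fold change of the list, 3.61 ± 1.06, was that of Bradi1g12130.1, annotated as the antenna protein LHCB1.3, at low levels. It stood at 0.379, 1.37 and 0.731 CPM in VB type 1 and at 2.46, 15.5 and 12.5 CPM in VB type 2.

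**Figure D2:**
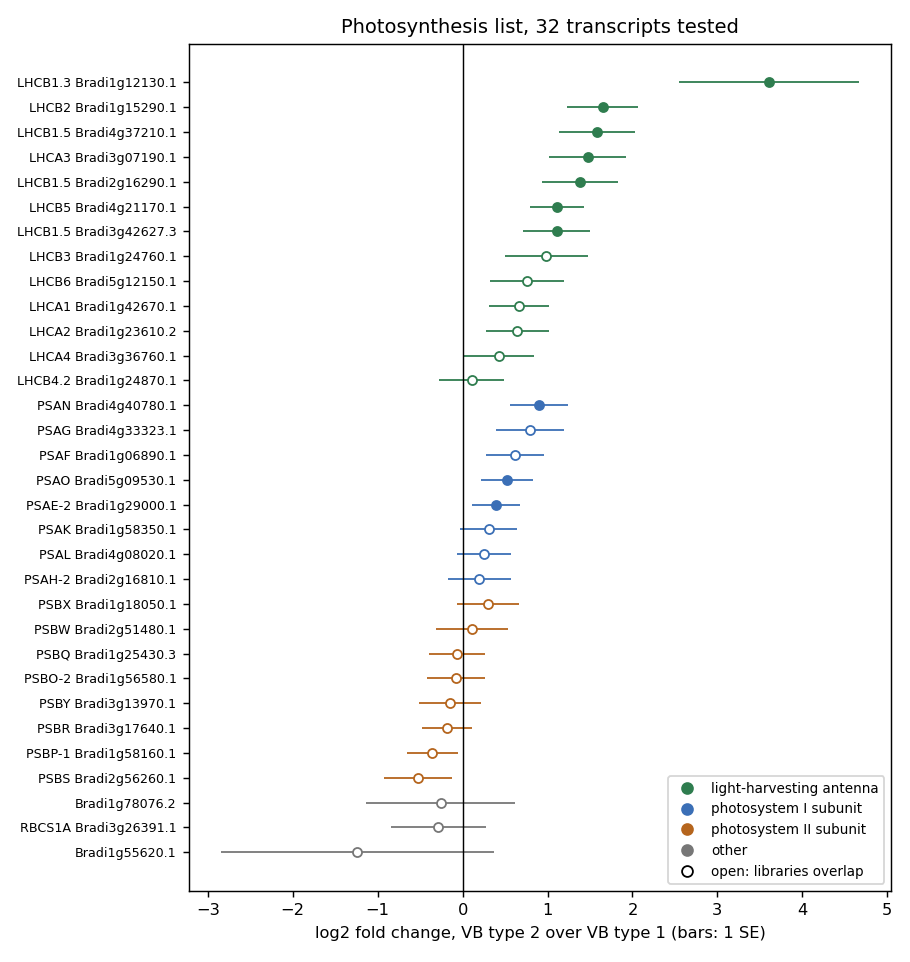
Log2 fold change of VB type 2 over VB type 1 for the 32 tested transcripts of the photosynthesis list, 1 row each, with bars of 1 SE and colours for the kind of subunit. Filled points mark transcripts whose 3 libraries of each type do not overlap. The 13 antenna transcripts and the 8 photosystem I subunits lie to the right of 0, and the photosystem II subunits lie on both sides of it.

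The summed level of the photosynthesis list was 2632 to 4405 CPM in VB type 1, 4605 to 5781 CPM in VB type 2, 3326 to 5642 CPM in VB type 3 and 11235 to 27077 CPM in parenchyma. VB type 2 lay above VB type 1 in every library, and VB type 3 spanned both. All 32 tested members were lower on average in VB type 1 than in parenchyma. EPFL1 and EPFL9 were taken as markers of stem-center parenchyma. They summed to 5.04 to 9.98 CPM in VB type 1 and 7.15 to 16.8 CPM in VB type 2. In parenchyma they summed to 18.7 to 136 CPM, and both were highest in replicate 3. Both had a log2 fold change above 0, of 0.53 ± 0.67 and 0.41 ± 1.83. EPFL9, at 0 in VB type 2 replicate 3, had one of -0.82 with the block. As a marker EPFL9 was weak, at 3.73, 1.40 and 39.4 CPM in parenchyma against 0.812, 4.07 and 0.633 CPM in VB type 1. The study also reports its pattern as not significant. What part parenchyma cells have in the photosynthesis values was not tested.

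Of the tested members of the photosynthesis list, 31 were annotated from a sheet of the study that is ordered by the difference between VB type 1 and parenchyma, so levels in VB type 1 had a part in choosing them. The other 328 tested transcripts annotated from that sheet and lower in VB type 1 than in parenchyma had a median log2 fold change of 0.09. Of these, 54.6% were above 0 and 6.1% lay higher in every VB type 2 library. The 1 tested member of the photosynthesis list annotated from another sheet had a log2 fold change of -1.24, the lowest of the list. Low chlorophyll had also served to recognise nascent bundles under the microscope, so a trait that the antenna genes bear on took part in choosing them. The part of this choice in the antenna values was not tested.

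A pair of other plastid genes lay on opposite sides. Bradi1g26000.2, annotated as GPT2, a carrier that brings glucose 6-phosphate into plastids, stood at 12.3, 13.7 and 19.8 CPM in VB type 1 and at 44.7, 64.0 and 57.9 CPM in VB type 2. The libraries were tight within each type, and the log2 fold change was 1.86 ± 0.38. VB type 3 was higher still in each library, at 73.1, 71.6 and 81.7 CPM. Bradi1g25860.1, annotated as a thiazole biosynthetic enzyme of the chloroplast that makes a precursor of thiamine, stood at 189, 239 and 351 CPM in VB type 1 and at 48.7, 67.9 and 127 CPM in VB type 2. Every VB type 2 library was below every VB type 1 library, with a log2 fold change of -1.68 ± 0.45. GPT2 had an adjusted p of 0.049 by DESeq2, and 0.15 by edgeR's likelihood ratio test. The thiazole enzyme had an adjusted p of 0.00251 by edgeR's likelihood ratio test with the block, and of 0.77 by that test and 0.32 by DESeq2 without it. The quasi-likelihood test called neither.

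**Figure D3:**
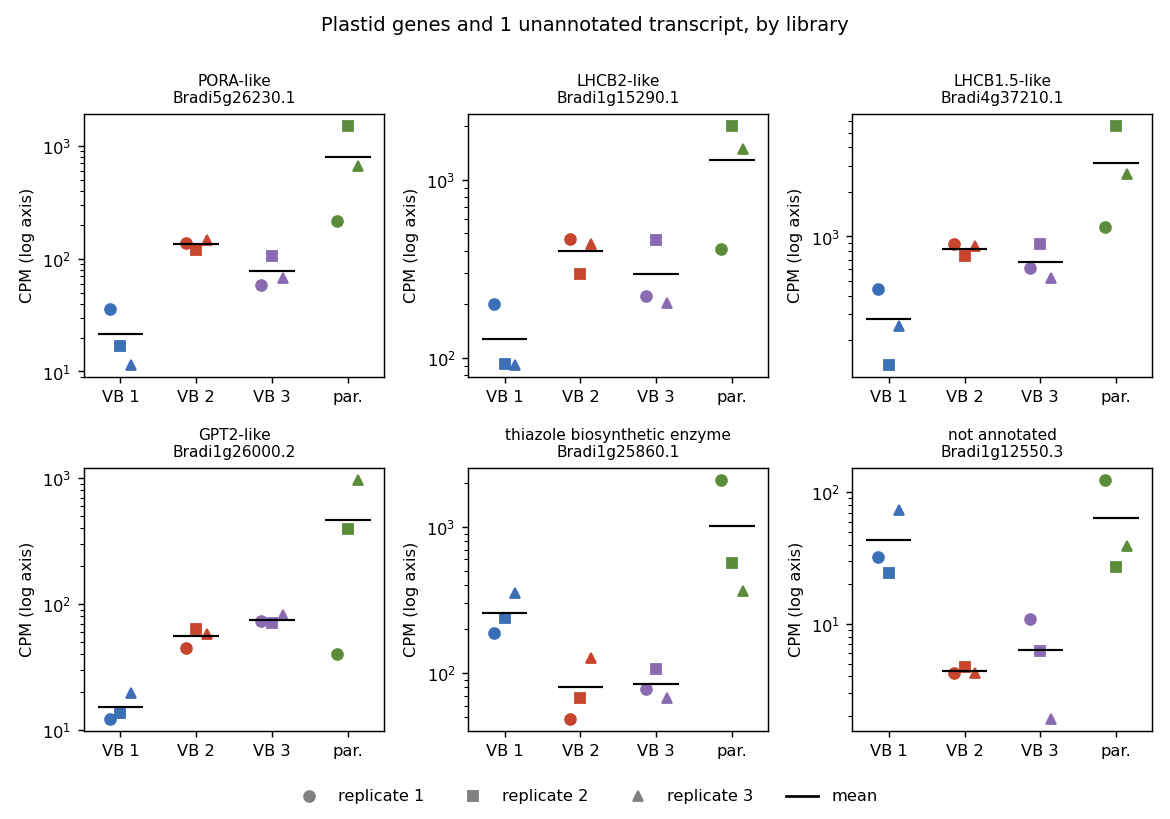
CPM on a log axis for 6 transcripts in VB types 1, 2 and 3 and in parenchyma (par.). Each point is a library, with circles, squares and triangles for replicates 1, 2 and 3, and black bars are means of 3. The PORA, LHCB2, LHCB1.5 and GPT2 transcripts lie higher in all 3 VB type 2 libraries than in any of VB type 1, and the thiazole enzyme and Bradi1g12550.3 lie lower.

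The xylem genes that the annotation used here covered did not separate the types. Across all lists, 16 identifiers that no source used here annotates were left out, CESA4, CESA7 and laccases among them. XCP1 (Bradi2g39320.2), the xylem cysteine protease that digests the contents of maturing vessel cells, stood at 297, 708 and 827 CPM in VB type 1, in which no protoxylem cell was perceptible, and at 178, 1060 and 1212 CPM in VB type 2. The types overlapped widely, and the log2 fold change was 0.42 ± 0.68. In parenchyma the transcript was at 1.56, 21.7 and 13.0 CPM, below every bundle library. The lowest library of each bundle type was replicate 1, also in VB type 3 with 254 CPM against 1210 and 894 CPM. Without the 2 libraries numbered 1 the median log2 fold change was 0.62 for the photosynthesis list and -0.16 for the secondary wall list.

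Of the 13 members of the secondary wall and xylem list, 7 passed the filter, 0 were called, 3 had a log2 fold change above 0, and the median was -0.07. The count above 0 was 1 without VB type 1 replicate 1 or VB type 2 replicate 3 and 5 without VB type 1 replicate 3 or VB type 2 replicate 1, and the median ranged from -1.15 to 0.62 over these and the other libraries left out. CESA8 (Bradi2g49912.1), a cellulose synthase of secondary walls, was low, at 1.30, 12.7 and 11.4 CPM in VB type 1 and 3.15, 17.5 and 3.59 CPM in VB type 2. The transcripts annotated as IRX9 and IRX10, which build the xylan backbone, had log2 fold changes of 0.01 ± 0.89 and 0.01 ± 0.86. FLA11-like (Bradi2g46120.1), a fasciclin-like arabinogalactan protein of secondary walls, was measured at 0, 0.0509 and 29.4 CPM in VB type 1 and 0.148, 1.74 and 2.44 CPM in VB type 2, so its log2 fold change of -2.76 ± 2.28 was set by VB type 1 replicate 3, without which the transcript did not pass the filter.

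The tested lignin genes did not separate the types either. CCR1 (Bradi3g36887.1), cinnamoyl-CoA reductase of monolignol synthesis, is also a member of the secondary wall and xylem list. It had the highest level per kilobase of the lignin list. CCR1 stood at 56.3, 265 and 184 CPM in VB type 1 and 46.1, 118 and 149 CPM in VB type 2. C4H (Bradi2g31510.1), cinnamate 4-hydroxylase, stood at 5.80, 49.2 and 101 CPM and at 10.6, 23.5 and 36.9 CPM. Neither differed beyond the spread of the libraries, with log2 fold changes of -0.69 ± 0.63 and -1.13 ± 0.89. Only 3 of the 7 members of the lignin list passed the filter, with 0 called, 1 above 0 and a median of -0.69. The median was -0.21 without VB type 1 replicate 2, -0.22 without VB type 1 replicate 3 and -0.34 without VB type 2 replicate 1. It was -1.12 without VB type 1 replicate 1 and -1.65 without VB type 2 replicate 3. CCR1 and C4H are in the sheet named above and were higher on average in VB type 1 than in parenchyma. The 1 tested member annotated by the study's microarray or coexpression sheets alone had a log2 fold change of 1.28. The part of the annotation source in the lignin values was not tested.

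Among proteases linked to cell death, 5 of 12 passed the filter, 0 were called, 4 had a log2 fold change above 0 and the median was 0.74. Without VB type 2 replicate 3 that median was 0.03. The aspartyl protease Bradi1g50760.1 was a bundle transcript, at 0.0579, 0.441 and 2.70 CPM in parenchyma. It stood at 60.3, 60.2 and 150.2 CPM in VB type 1 and at 17.9, 488 and 567 CPM in VB type 2. VB type 2 thus held both the lowest and the 2 highest libraries, and the log2 fold change of 1.99 ± 1.01 had an unadjusted p of 0.0867 by edgeR's quasi-likelihood test. A second aspartyl protease, Bradi4g23670.1, did not overlap between the types, with 0.0542, 3.72 and 0.439 CPM against 5.82, 6.84 and 15.1 CPM.

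**Figure D4:**
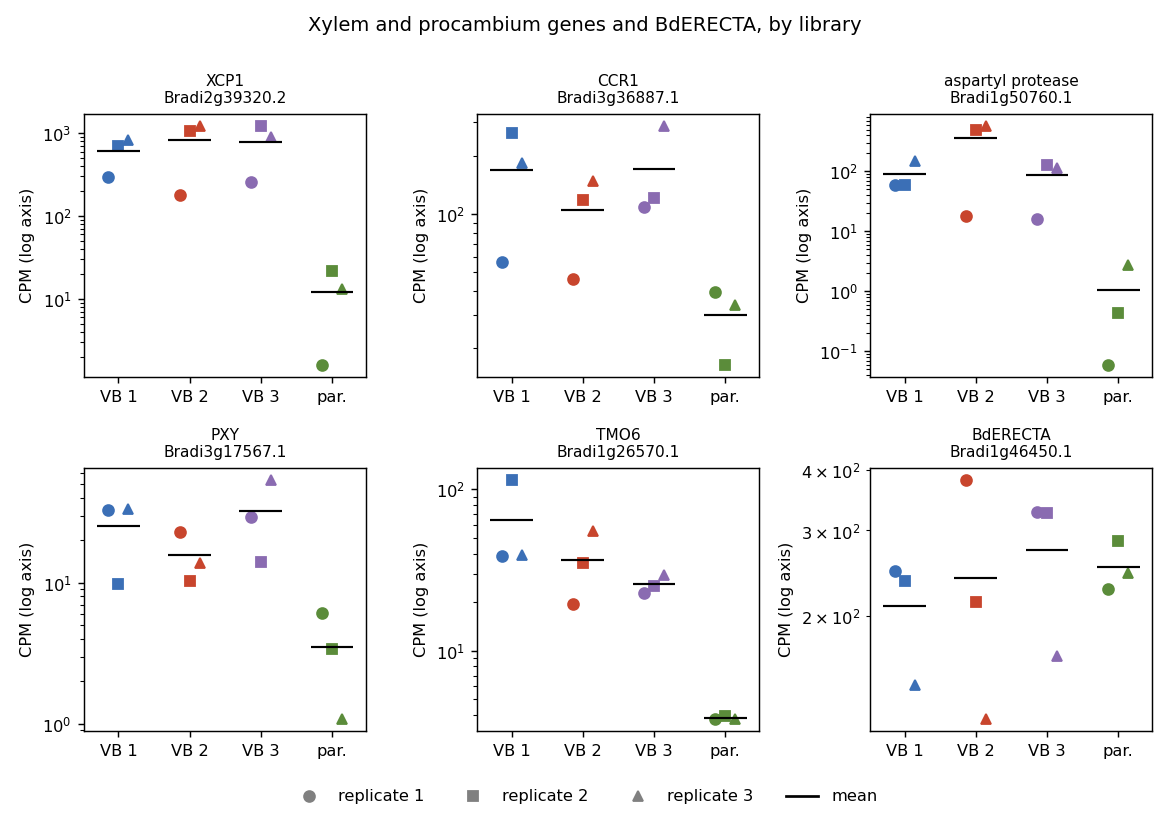
CPM on a log axis for 6 transcripts in VB types 1, 2 and 3 and in parenchyma (par.). Each point is a library, with circles, squares and triangles for replicates 1, 2 and 3, and black bars are means of 3. VB types 1 and 2 overlap in all 6 panels, and for XCP1 the circle of replicate 1 is the lowest of each bundle type.

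All 6 transcripts of procambium and vascular patterning had a log2 fold change below 0, with 0 called and a median of -0.65. The median stayed between -0.67 and -0.43 with each library left out, and 1 of the 6 was above 0 without VB type 1 replicate 3 or VB type 2 replicate 1. TMO6 (Bradi1g26570.1), a Dof transcription factor acting downstream of auxin in the Arabidopsis embryo, stood at 38.8, 115 and 39.0 CPM in VB type 1 and at 19.3, 34.7 and 55.0 CPM in VB type 2. PXY (Bradi3g17567.1) stood at 33.1, 9.78 and 33.3 CPM and at 22.8, 10.3 and 13.9 CPM. WOX13 (Bradi2g53390.3), a WUSCHEL-related homeobox factor with the highest level per kilobase of the list, stood at 81.9, 72.9 and 89.2 CPM and at 45.4, 73.6 and 55.1 CPM. In each of the 3 genes the types overlapped, and the log2 fold changes were -0.82 ± 0.58, -0.70 ± 0.59 and -0.49 ± 0.32. Of these 6 transcripts 0 were free of overlap in either direction. The 423 tested transcripts annotated from the sheet named above and higher in VB type 1 than in parenchyma had a median of -0.41, with 27% above 0. The part of this annotation source in the procambium values was not tested.

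Auxin genes stood near the background. Of 34 members 23 passed the filter, 0 were called, 14 (60.9%) were above 0 and the median was 0.08. The carrier PIN1a (Bradi1g45020.1), which exports auxin along the strand, stood at 82.7, 94.2 and 85.8 CPM in VB type 1 and 118, 98.8 and 61.7 CPM in VB type 2, a log2 fold change of 0.08 ± 0.34. The other PIN carriers named in the study, PIN1b (Bradi3g59520.1) and SoPIN (Bradi4g26300.2), had log2 fold changes of -0.90 ± 0.91 and 0.23 ± 0.56. WAT1 (Bradi4g21220.1), a vacuolar auxin transporter needed for thick secondary walls in Arabidopsis fibers, had the highest level per kilobase of the list, at 297, 275 and 109 CPM and at 211, 185 and 165 CPM. IAA1 (Bradi1g14230.1), a repressor of auxin response, had a log2 fold change of -0.99 ± 0.60. An auxin response factor, Bradi5g25767.1, was the 1 member free of overlap, at 199, 175 and 186 CPM against 292, 228 and 215 CPM, and its log2 fold change was 0.39 ± 0.28. The auxin median was -0.26 with the block and -0.45 without VB type 2 replicate 3.

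Of the ERECTA receptors and their ligands 0 were called, and all but EPFL2 overlapped between the types. BdERECTA (Bradi1g46450.1) stood at 247, 236 and 144 CPM in VB type 1, at 382, 213 and 122 CPM in VB type 2, at 327, 326 and 165 CPM in VB type 3 and at 228, 285 and 245 CPM in parenchyma. Replicate 3 was the lowest library of each bundle type, and the log2 fold change of 0.19 ± 0.46 had a 1 SE range on both sides of 0. BdERECTA-like1 (Bradi1g49950.1) had a log2 fold change of -0.59 ± 0.51. Among the peptide ligands, EPFL2 (Bradi1g10080.1) was lower in every VB type 2 library, at 5.52, 9.22 and 5.21 CPM against 2.76, 1.38 and 0 CPM, with an unadjusted p of 0.175 by edgeR's quasi-likelihood test. EPFL4 (Bradi1g74380.1) and EPFL6 (Bradi2g22340.1) had log2 fold changes of -0.11 ± 0.46 and 0.65 ± 0.89, and EPFL3 (Bradi2g05865.1) did not pass the filter, with 0.56 CPM as its highest library. Over the 14 transcripts named in the study for this experiment, 13 were tested, 0 called and 7 above 0.

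Other hormone genes were few. Of 8 tested members of the brassinosteroid, gibberellin and cytokinin list, 0 were called, 6 were above 0 and the median was 0.54. The median was 0.30 without VB type 2 replicate 2 and 0.90 without VB type 1 replicate 3. BR6OX2 (Bradi1g15030.1), an oxidase of the last steps of brassinosteroid synthesis, was the 1 member free of overlap, at 3.95, 16.9 and 4.04 CPM in VB type 1 and 27.5, 20.8 and 19.2 CPM in VB type 2. The gibberellin-inactivating enzyme GA2OX2 (Bradi2g50280.1) had a log2 fold change of 1.45 ± 1.21. The gibberellin-regulated Bradi5g12714.1, the highest of the list per kilobase, had one of -0.04 ± 0.81.

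In the phloem list 4 of 6 members passed the filter, with 0 called, 2 above 0 and a median of -0.01, which ranged from -0.74 to 0.76 with single libraries left out. SWEET7-like (Bradi3g10270.1), a sugar exporter, stood at 54.7, 140.1 and 14.5 CPM in VB type 1 and at 26.9, 158 and 108 CPM in VB type 2. The types overlapped, as they did for a second SWEET-type transcript, Bradi2g47540.2, whose log2 fold change was 0.99 ± 1.33.

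Genes of wall loosening and pectin were split. Of 40 members 28 passed the filter, 0 were called, 15 (53.6%) were above 0, the median was 0.04 (-0.12 with the block), 3 lay higher in every VB type 2 library and 2 lower. Bradi1g33810.1, annotated as TCH4/XTH22, a xyloglucan endotransglucosylase that remodels growing walls, stood at 9.48, 13.3 and 63.3 CPM in VB type 1 and at 34.1, 173 and 192 CPM in VB type 2. The types overlapped through VB type 1 replicate 3 and VB type 2 replicate 1. Each VB type 2 library was above the VB type 1 library of its own number, but by the rule given below the numbers do not pair the samples. The log2 fold change of Bradi1g33810.1 was 2.21 ± 0.88 without the block and 2.36 ± 0.47 with it. The transcript was called under the block by edgeR's likelihood ratio test, at an adjusted p of 0.00913, and by DESeq2, at 0.000175. Without the block its adjusted p was 1.00 and 0.97 by these tests. The polygalacturonase inhibitor Bradi1g24230.1, the highest of the list per kilobase, stood at 397, 946 and 1368 CPM and at 1379, 2013 and 1633 CPM, free of overlap by a narrow margin.

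The pectin methylesterase PMEPCRA (Bradi2g52140.1) stood at 2.65, 5.50 and 3.75 CPM in VB type 1 and at 0 pairs in every VB type 2 library. Against a floor of 3 pairs per library its mean was at least 25.2-fold lower in VB type 2. Its adjusted p was 1.00 by the quasi-likelihood test of edgeR, 0.0147 by its likelihood ratio test and 0.0106 by DESeq2. In VB type 3 the transcript was at 0, 0.0946 and 0 CPM, and in parenchyma at 0.

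Heat shock proteins and chaperones lay on both sides of 0. Of 26 members 22 passed the filter, 0 were called, 11 (50%) were above 0, the median was 0.00493, 4 lay higher in every VB type 2 library and 2 lower. Of the 12 annotated by the study's microarray or coexpression sheets alone, a selection made after seeing the data, 10 were above 0 and the median was 0.58. An HSP70 chaperone, Bradi2g23250.1, stood at 1.14, 0.815 and 1.32 CPM in VB type 1 and at 4.04, 18.1 and 22.7 CPM in VB type 2, a log2 fold change of 3.77 ± 0.88. It was called by DESeq2, at an adjusted p of 0.0206, and not by edgeR's likelihood ratio test, at 0.0866. HSFA3 (Bradi3g44700.1), a heat shock transcription factor, stood at 1.46, 30.3 and 1.80 CPM in VB type 1 and at 0.197, 0 and 0 CPM in VB type 2. HSP21 (Bradi3g20830.1), a plastid small heat shock protein and the highest of the list per kilobase, had a log2 fold change of -0.37 ± 0.85.

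In the defence and jasmonate list 14 of 30 members passed the filter, with 0 called, 10 (71.4%) above 0 and a median of 0.28. The median was -0.16 without VB type 1 replicate 1 and -0.32 without VB type 2 replicate 3, with 5 above 0 in both cases. A thaumatin-type pathogenesis-related protein, Bradi2g54560.1, stood at 17.0, 9.83 and 7.65 CPM in VB type 1 and at 73.2, 51.4 and 20.7 CPM in VB type 2, free of overlap, with a log2 fold change of 2.07 ± 0.57. It was called with the block by edgeR's likelihood ratio test, at an adjusted p of 0.0261, and not without it, at 0.53. With the block, that test and DESeq2 each called 1 member of the list higher and 1 lower. The jasmonate repressors annotated as JAZ1 (Bradi3g10820.1) and JAZ11 (Bradi1g72610.1) had log2 fold changes of 0.28 ± 0.62 and 2.63 ± 1.15, and the libraries of both overlapped.

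NAC and MYB transcription factors, which include the regulators of secondary walls, gave 13 tested of 29, 0 called, 5 above 0 and a median of -0.19, which was 0.54 without VB type 1 replicate 2 and -0.75 without VB type 2 replicate 3. Of the tested members 1 lay higher in every VB type 2 library and 1 lower. The higher was Bradi3g47627.1, annotated as NAC044, which was even within types. It stood at 7.91, 7.28 and 7.26 CPM in VB type 1 and at 12.4, 14.2 and 17.8 CPM in VB type 2. A MYB59-like transcript, Bradi2g62510.3, stood at 0, 0.509 and 9.65 CPM and at 0, 10.8 and 87.6 CPM, with a log2 fold change of 3.27 ± 2.28 and overlap between the types. With the block it was 3.69 ± 0.73, at adjusted p-values of 0.0143 by edgeR's likelihood ratio test and 0.00571 by DESeq2, against 1.00 by both without the block. The MYB37-like Bradi2g05740.1, the highest of the list per kilobase, had a log2 fold change of -0.74 ± 1.52. An AP2-type factor outside the lists, Bradi3g35560.1, annotated as related to AP2 4, stood at 126, 381 and 178 CPM in VB type 1 and at 68.5, 46.6 and 64.0 CPM in VB type 2. It was free of overlap, with a log2 fold change of -1.94 ± 0.47, and its adjusted p by DESeq2 was 0.097 without the block and 0.00465 with it.

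Of the cytosolic and organelle ribosomal proteins 13 of 15 passed the filter, with 0 called, 3 (23.1%) above 0 and a median of -0.31. Without VB type 1 replicate 3 the count above 0 was 7 and the median 0.00336. The L6 family transcript Bradi1g62170.1 was tight in VB type 1, at 51.0, 50.9 and 55.1 CPM, and lower in every VB type 2 library, at 18.8, 33.0 and 20.9 CPM, a log2 fold change of -1.11 ± 0.36. The transcripts annotated as plastid-specific ribosomal proteins, Bradi5g12430.1 and Bradi2g10740.1, had log2 fold changes of -0.99 ± 0.61 and -0.15 ± 0.39.

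Aquaporins gave 7 tested of 11, 0 called, 2 above 0 and a median of -0.42. The median was -0.03 without VB type 1 replicate 2, -0.21 without VB type 2 replicate 1, -0.71 without VB type 2 replicate 2 and -0.77 without VB type 1 replicate 1. The tonoplast aquaporin TIP1;1 (Bradi1g75290.1) was even between the types, at 158, 248 and 264 CPM and at 287, 210.4 and 248 CPM. The TIP transcripts Bradi2g31800.2, Bradi2g62520.1 and Bradi2g07810.1 had log2 fold changes of -0.39 ± 0.38, -1.26 ± 0.97 and -1.96 ± 1.76, and the first, named after its values were seen, stood at 86.0 to 204 CPM in the 6 libraries. Only 3 transcripts of cell division were annotated and tested, with 0 called and 1 above 0. They were the kinesin Bradi1g64770.1, the cyclin-dependent kinase-activating factor Bradi1g48110.1 and the DNA polymerase subunit Bradi3g37840.1, with log2 fold changes of -0.50 ± 0.63, -0.59 ± 0.57 and 0.90 ± 0.78.

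Several of the transcripts with the smallest p-values carried no gene name or description in the annotation used here. Bradi1g12550.3 had the smallest p among those lower in VB type 2 without overlap. It stood at 32.5, 24.6 and 73.3 CPM in VB type 1 and at 4.24, 4.68 and 4.21 CPM in VB type 2, with 10.9, 6.19 and 1.90 CPM in VB type 3. Its log2 fold change was -3.31 ± 0.54, with adjusted p-values of 0.00947 by edgeR's likelihood ratio test and 0.000357 by DESeq2. Bradi5g21980.1 and Bradi3g32660.1 were also lower, with log2 fold changes of -3.19 ± 0.69 and -4.38 ± 0.96, but in VB type 3 they returned to 22.1, 4.96 and 20.8 CPM and to 40, 1.75 and 16.8 CPM.

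On the higher side, Bradi3g16515.1 stood at 3.30, 8.55 and 5.80 CPM in VB type 1, at 28.4, 40.8 and 45.8 CPM in VB type 2 and at 37.6, 28.8 and 49.7 CPM in VB type 3. Bradi2g12228.1 followed the same order, at 14.2, 11.6 and 13.7 CPM, then 34.2, 51.9 and 49.1 CPM, then 34.9, 27.6 and 39.6 CPM. In both, the VB type 2 and 3 libraries lay together above VB type 1. Bradi4g09801.1 instead returned toward the lower level, at 3.95, 2.85 and 2.58 CPM in VB type 1, 28.1, 18.1 and 19.7 CPM in VB type 2 and 1.51, 6.48 and 6.78 CPM in VB type 3. Bradi4g21710.1, Bradi1g65520.1 and Bradi5g02350.1 had log2 fold changes of 1.65 ± 0.40, 2.35 ± 0.57 and 2.70 ± 0.65. Bradi3g56990.1 stood at 0.0542, 0.102 and 0 CPM in VB type 1, which is at most 3 pairs a library, and at 3.60, 6.66 and 6.42 CPM in VB type 2.

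With the replicate block, Bradi3g35830.1, Bradi4g23350.1 and Bradi4g02030.1 entered the smallest p-values on the lower side, besides the thiazole enzyme described above. The first stood at 2.65, 56.0 and 2.92 CPM in VB type 1 and at 0, 1.5 and 0.0479 CPM in VB type 2. In the first and the second, replicate 2 was the highest library of both types, and the standard error of the log2 fold change of the first went from 1.99 without the block to 0.96 with it.

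Some transcripts were at or under 3 pairs in every library of one type and over 3 in every library of the other. There were 154 of these at the floor in VB type 2 and 31 at the floor in VB type 1, of 34310 in all, and 26 and 6 of them passed the filter. The libraries of VB type 2 also held fewer transcripts with a pair, as given above. Many of these values were carried by a single library: Bradi1g68260.1 stood at 2.87, 109 and 0.633 CPM in VB type 1, and Bradi5g26587.6 at 0.197, 1.68 and 26.7 CPM in VB type 2. Against the floor, the means of Bradi1g50968.1, a DUF295 protein, and Bradi5g02205.2 were at least 142-fold and 99.5-fold lower in VB type 2. Both had 0 pairs there. In VB type 1 replicates 1 to 3 the first had 4, 811 and 526 pairs and the second 4, 720 and 206 pairs. The bounds thus rest on replicates 2 and 3, with replicate 1 just over the floor of 3 pairs, and neither transcript passed the filter. Bradi1g22440.1 was at least 28.5-fold higher in VB type 2, at 0.394, 9 and 3.73 CPM against 0 pairs in VB type 1. More even were Bradi1g23620.1, Bradi4g36954.1 and Bradi5g20120.1, at least 21.5-fold, 18.8-fold and 17.6-fold lower in VB type 2, with 2.06 to 5.09, 1.66 to 4.28 and 1.36 to 3.90 CPM in VB type 1. In Bradi2g15370.1 and Bradi4g19140.1 a single VB type 2 library was above 0, at 0.0986 and 0.0493 CPM.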

How the data were processed

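Per the labels and the study's methods, polyadenylated RNA was amplified with a SMARTer kit and sequenced in pairs. The authors trimmed reads, aligned them to the Brachypodium transcriptome with Bowtie2, and deposited per library the counts of read pairs and of single reads for 34310 transcripts. The build is not given in the sources used here. The labels call the libraries unstranded and the methods stranded, so antisense partners cannot be told apart. Pair counts were tested with edgeR 4.0.16 in R 4.3.3 (glmQLFit, glmQLFTest), keeping transcripts that reached 1 CPM in 3 or more of the 6 libraries, with TMM factors and a Benjamini-Hochberg threshold of 0.05. CPM values divide by the tested pairs times the TMM factor. Each standard error (SE) is the absolute log2 fold change divided by the square root of the quasi-likelihood F statistic. Alternatives used the likelihood ratio test, DESeq2 1.42.0, limma 3.58.1 (voom), other scalings, filters and library sets, and the replicate block. Code was tested on simulated data.

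Annotation, the best Arabidopsis hit, came from the study's supplementary sheets and covered 2108 transcripts. None of the identifiers matched the reference gene table, and no sequence is printed. A second sheet was set aside because 0 of its 555 shared identifiers had the same best hit as in the others. The members and lists were chosen with earlier results of these data known. Named transcripts are those the study named, the 10 higher and 10 lower of smallest p among those free of overlap, 6 and 6 with the block, per list the highest per kilobase and the 2 of smallest p, and 3 and 3 at the floor. LHCB1.3, IRX9, IRX10, CESA8 and Bradi2g31800.2 were added after their values were seen.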

Additional observations from a re-analysis of the deposited data

How the results depend on the processing

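The quasi-likelihood result of 0 called transcripts held with size factors of the RLE method, library totals, no filter, 1 CPM in 4 of 6 libraries, 9 or 12 libraries in the fit, single-read counts, without Bradi2g12067.1, without each library, without both libraries numbered 1 (chosen after seeing the data), and with limma-voom. It became 19 by the likelihood ratio test, 50 by that test with the block, 16 by DESeq2, 127 by DESeq2 with the block and 7 by limma-voom with the block (chosen after seeing the data). With the replicate block the quasi-likelihood test again called 0. Leaving out single libraries or same-numbered pairs gave 0 to 2 calls. The 2, from the fit that both left out the libraries numbered 3 and kept the block, were Bradi3g16060.1 and Bradi4g30360.1, which carry no annotation here and were named after their values were seen. The replicate numbers do not pair the samples by the rule used: deviations of same-numbered libraries from their type correlated at 0.475, 0.0284 and 0.297 for numbers 1, 2 and 3, and VB type 1 replicate 2 correlated better with VB type 2 replicate 3, at 0.152.

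Of 74 named transcripts tested, 56 kept their direction in every setting that tested them and 18 did not. None of the 74 was called by the quasi-likelihood test. The values that follow are those of the 18. With the replicate block, the likelihood ratio test with it, DESeq2 with it and limma-voom, the log2 fold change was 0.23, 0.37, 0.34 and 0.69 for Bradi2g05740.1, 1.66, 2.06, 2.23 and 1.07 for FLA11-like, and -0.82, -0.83, -0.94 and -1.46 for EPFL9. With the block and 9 libraries it was 0.67 for FLA11-like and -0.089 for EPFL9. EPFL4 was at 0.0147 with the block in both edgeR tests and 0.0203 by limma-voom. Without both libraries numbered 1, PIN1a, BdERECTA, EPFL4 and TIP1;1 were at -0.17, -0.18, 0.10 and -0.16, and Bradi5g12714.1 was at 0.0199 with library totals. The cause was not tested. Leaving out single libraries or pairs, log2 fold changes ranged from -0.21 to 0.28 for PIN1a, -0.32 to 0.49 for BdERECTA, -0.46 to 0.30 for EPFL4, -0.17 to 0.39 for TIP1;1, -1.86 to 1.34 for Bradi2g05740.1, -0.35 to 0.26 for Bradi2g10740.1, -0.24 to 2.38 for EPFL6, -0.10 to 0.90 for XCP1, -3.37 to 0.059 for FLA11-like, -0.00307 to 0.96 for EPFL9, -2.21 to 0.0412 for Bradi2g62520.1, -0.44 to 1.53 for SWEET7-like, -0.27 to 0.91 for Bradi3g10820.1, -0.30 to 0.0285 for Bradi3g17640.1, -1.06 to 0.11 for HSP21, -0.61 to 0.0462 for WAT1, -0.15 to 0.74 for SoPIN and -1.37 to 1.32 for Bradi5g12714.1. PORA stayed between 2.35 and 3.25, LHCB2 between 1.43 and 2.11, GPT2 between 1.70 and 2.09 and the thiazole enzyme between -2.19 and -1.40. With 3 libraries a type, an exact permutation test of a single value cannot go below 0.1.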
